A study of Mus musculus with 8 samples.

Results

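The genes described here are cullins, the scaffolds of cullin-RING ubiquitin ligases, and members of the adapter families that bring substrates to them. They were picked by gene symbol from the tables of AtT-20 cells, with earlier results of these data known, and 113 of the 12193 loci were taken. The 113 genes were 40 F-box genes (11 Fbxl, 23 Fbxo and 6 Fbxw), 41 BTB-domain genes (16 Klhl, 6 Kbtbd, 11 Kctd and 8 Btbd), 14 SOCS-box genes (7 Asb, 4 Socs and 3 Spsb), 11 Dcaf genes and 7 cullins. Fbxo32, Klhl24 and Socs3 were left out by the rule, and Socs1, Socs2 and Cish, which have no locus in the tables used, are not analysed here. All 113 genes passed the filter on low values (2 or more libraries at 1 FPKM or above), so none was lost to it. FPKM is the number of sequenced fragments per kilobase of transcript, scaled to library size. EGF is epidermal growth factor and EGFR its receptor. AtT-20 is a mouse pituitary tumour line of corticotrope cells, which secrete ACTH made from the Pomc product. RNA-seq libraries came from AtT-20 cells of genotype EGFR that received EGF for 3 h, EGF for 18 h or water, and from the control genotype Neo, which received water only. Each of the 4 groups has 2 libraries, both water groups are labelled 3 h, and all cells grew in medium with serum. Whether each genotype is 1 clone or a pool, and from which species the EGFR came, is not stated in the labels. Neither do they say that replicates are separate cultures, so the p-values here reflect the spread between samples that could be technical repeats. No Neo library received EGF, and no water library is labelled 18 h, so EGF and time in culture cannot be told apart at 18 h.

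A cullin-RING ligase is built on an elongated cullin whose far end carries a RING protein that recruits the ubiquitin-conjugating enzyme, and whose near end carries an exchangeable adapter that selects the protein to be ubiquitinated. CUL1 takes F-box proteins through SKP1, CUL3 takes BTB-domain proteins directly, CUL2 and CUL5 take SOCS-box and VHL-box proteins through elongins B and C, and CUL4A and CUL4B take DCAF proteins through DDB1. Conjugation of NEDD8 activates the cullin, and the COP9 signalosome removes it. In growth factor signalling, several SOCS-box proteins bind activated receptors or their adaptors and limit the signal, while many F-box and kelch proteins control the stability of cell cycle regulators, transcription factors, clock proteins and cytoskeletal regulators.

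Promoters of 5 genes that passed the test at 3 h of EGF are shown so that their letters can be read beside the values that follow. Each runs from 250 bases before to 50 bases after a transcript start, 5′ to 3′ on the strand of the gene, from RefSeq on GRCm38.p6, and capitals mark a match to the ETS-type letters CCGGAA on either strand. The first 3 belong to BTB genes that were higher at 3 h of EGF, and the last 2 belong to an F-box gene and a SOCS-box gene that were lower at 3 h. Spsb2 has 2 start sites in the table, and the first is shown. The table holds no entry for Socs5, Btbd9, Fbxo25 or Klhl8. It does hold promoters of Kctd10, Klhl41, Dcaf8, Klhl13, Asb1 and Dcaf5, which also passed at 3 h and are not shown.
Btbd17, chr11:114795843-114796142, minus strand: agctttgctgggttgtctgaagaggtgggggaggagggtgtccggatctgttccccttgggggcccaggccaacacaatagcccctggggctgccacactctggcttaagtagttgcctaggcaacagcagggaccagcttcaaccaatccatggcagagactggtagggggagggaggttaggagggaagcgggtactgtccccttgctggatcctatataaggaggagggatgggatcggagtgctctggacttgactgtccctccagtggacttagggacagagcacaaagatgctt
Klhl2, chr8:64849875-64850174, minus strand: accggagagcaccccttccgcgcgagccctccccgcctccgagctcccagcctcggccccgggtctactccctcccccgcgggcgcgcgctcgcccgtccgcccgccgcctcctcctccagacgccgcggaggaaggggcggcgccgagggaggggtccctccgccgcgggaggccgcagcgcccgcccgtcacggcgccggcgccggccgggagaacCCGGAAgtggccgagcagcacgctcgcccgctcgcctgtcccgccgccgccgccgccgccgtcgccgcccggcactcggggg
Kbtbd8, chr6:95117630-95117929, plus strand: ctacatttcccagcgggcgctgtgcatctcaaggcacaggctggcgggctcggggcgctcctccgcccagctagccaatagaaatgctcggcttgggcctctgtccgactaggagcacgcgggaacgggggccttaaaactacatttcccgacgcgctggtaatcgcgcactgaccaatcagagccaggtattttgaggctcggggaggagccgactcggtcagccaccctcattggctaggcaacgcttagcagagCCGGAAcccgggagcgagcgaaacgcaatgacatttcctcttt
Fbxl20, chr11:98149567-98149866, minus strand: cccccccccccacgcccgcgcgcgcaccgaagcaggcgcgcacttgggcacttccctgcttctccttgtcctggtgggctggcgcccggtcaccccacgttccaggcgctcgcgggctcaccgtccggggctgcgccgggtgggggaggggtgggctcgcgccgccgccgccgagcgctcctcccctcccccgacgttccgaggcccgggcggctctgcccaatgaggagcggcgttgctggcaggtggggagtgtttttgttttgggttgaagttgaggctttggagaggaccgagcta
Spsb2, chr6:124808635-124808934, plus strand: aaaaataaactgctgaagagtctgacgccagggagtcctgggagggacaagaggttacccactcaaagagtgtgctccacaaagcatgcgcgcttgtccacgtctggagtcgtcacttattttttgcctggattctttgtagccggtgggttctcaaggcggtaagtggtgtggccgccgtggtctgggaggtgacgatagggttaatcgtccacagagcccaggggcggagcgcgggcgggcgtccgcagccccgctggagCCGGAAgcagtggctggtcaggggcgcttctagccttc

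Of the 5 printed promoters, those of Klhl2, Kbtbd8 and Spsb2 hold CCGGAA, and those of Btbd17 and Fbxl20 hold none of the 5 letter patterns searched. The patterns, searched on both strands, were CCGGAA (ETS type), TTCNNNGAA (STAT type), TGANTCA (AP-1 type), CACGTG (E-box) and GTAAACA (forkhead type), and a STAT-type match with CCG or CGG in its middle also holds CCGGAA. RefSeq promoters were found for 88 of the 113 genes, with 128 start sites in all. CCGGAA occurred in 40 of these 128 promoters (31.2%), against 30.0% of the 9102 promoters of all loci tested and 14.9% of all 32851 promoters in the table. TTCNNNGAA occurred in 4 (3.12%), against 6.43% of promoters of loci tested. TGANTCA occurred in 11 (8.59%), against 4.33%, CACGTG in 11 (8.59%), against 10.4%, and GTAAACA in 3 (2.34%), against 2.44%. A match is a description of letters, not of a site in use, and a missing match says only that these letters are not in this window.

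Egfr and the corticotrope markers were read as a check of the labels. Egfr stood at 25.9 and 27.5 FPKM in EGFR water libraries, against 0.227 and 0.0663 FPKM in Neo water libraries (log2 fold change 4.60, SE 0.072, adjusted p = 2.86e-07). Of 7 corticotrope markers, Pomc (6981 to 8930 FPKM over the 8 libraries), Tbx19 (83.8 to 113), Pcsk1 (353 to 443), Neurod1 (10.5 to 13.5) and Pitx1 (10.1 to 12.1) were present. Crhr1 and Avpr1b and all markers listed for fibroblasts, endothelial cells and blood cells have no locus in the tables used and are not analysed here. Small RNA loci took 29.1 to 32.8% of summed FPKM in the 6 EGFR libraries and 39.0% and 33.2% in the Neo water libraries. Their part in the results was not tested, but a fit over protein-coding genes only, scaled to the sum of those genes, leaves them out and is given beside the counts it changes. The 113 genes summed to 2220 to 2309 FPKM in every library, so their total moved little.

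On average over the 8 libraries the 113 genes had a median of 13.4 FPKM, from 1.37 FPKM for Asb5, an ankyrin-repeat SOCS-box gene, to 76.9 FPKM for Btbd17, and 11 lay under 5 FPKM. Between the highest and the lowest library a gene differed by a median factor of 1.22, with 1.14 for cullins and 1.30 for SOCS-box genes at the ends. Cullins were the most abundant class, with a median of 32.1 FPKM (5.87 for Cul7 to 75.3 for Cul3). F-box genes had a median of 17.8 FPKM (4.30 for Fbxo47 to 55.1 for Fbxw11) and DCAF genes 12.7 FPKM (5.09 for Dcaf4 to 74.8 for Dcaf13). The median was 12.3 FPKM for BTB genes (3.09 for Kbtbd3 to 76.9 for Btbd17) and 10.9 FPKM for SOCS-box genes (1.37 for Asb5 to 40.9 for Socs7). After Cul3, the scaffold of BTB ligases, came Dcaf13, a nucleolar protein of ribosomal RNA processing, and Klhl13, a CUL3 adapter that acts in mitosis in human cells. Their ranges over the 8 libraries touch (70.5 to 79.6 FPKM for Cul3, 69.1 to 80.3 for Dcaf13 and 56.7 to 80.9 for Klhl13), so their order does not stand out from the spread. Fbxw11, a beta-TrCP protein that recognises phosphorylated beta-catenin and I-kappa-B, ranged from 53.3 to 58.2 FPKM and was the highest F-box gene in all 8 libraries.

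**Figure D1:**
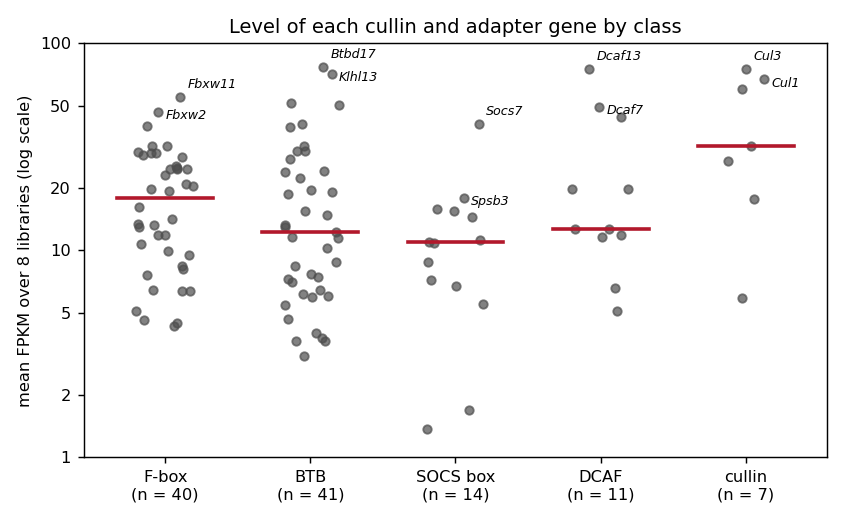
Mean FPKM over 8 libraries on a log axis for each of the 113 genes (points) by class, with the class median (line) and the 2 highest genes of each class named. Cullins had the highest median (32.1 FPKM), and Btbd17, Cul3, Dcaf13 and Klhl13 stood at the top of the classes they belong to or next to it.

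The first comparison, EGF at 3 h against water in the EGFR line, asks which adapters respond early. BTB genes such as Btbd17 and Klhl2 and the SOCS gene Socs5 were higher, and F-box genes such as Fbxl20 and Fbxo25 and the SOCS-box gene Spsb2 were lower. Of the 113 genes 17 were called higher and 29 lower (limma, Benjamini-Hochberg adjusted p below 0.05 over 10874 loci). That is 40.7%, against 31.5% of all loci tested (11.8% higher and 19.7% lower). Shares of all loci, here and below, are from the fit of values as deposited with every library. Those under the alternatives are not given, so counts that change there cannot be read as particular to these genes. Fold changes here and below are differences of log2(FPKM + 1), EGF minus water unless said otherwise, and understate changes of low genes. Their median was −0.063 for the 113 genes and −0.041 for all loci tested. The changes were small, with log2 fold changes from −0.88 to 0.54, and in bulk RNA fewer cells of a kind and less RNA per cell cannot be told apart. The split depended on the scaling, with 21 higher and 23 lower under median-ratio scaling (47.7% of calls higher, against 37.0% as deposited). It was 17 and 10 under common-sum scaling (63.0%) and 29 and 23 over protein-coding genes only (55.8%), although no scaling moved the median of all loci by more than 0.077. Counts fell to 8 higher and 12 lower without EGFR water library 1, 9 and 13 without EGFR water library 2, and 9 and 12 without EGF 3 h library 1.

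EGF for 18 h was compared with the same water libraries, so both comparisons share them. Btbd17, Socs5 and Klhl2 were higher at this time too, while Fbxo5, Klhl13 and Klhl41 were lower. Of the 113 genes 5 were called higher and 22 lower, that is 23.9%, against 31.9% of all loci tested (13.2% higher and 18.7% lower), with a median of −0.041 against −0.031 for all loci. The split was 10 higher and 15 lower under median-ratio scaling (40.0% higher, against 18.5% as deposited), 4 and 9 under common-sum scaling (30.8%) and 16 and 16 over protein-coding genes only. Without 1 library the count of lower genes was 7 (EGFR water 1), 12 (EGFR water 2), 8 (EGF 18 h 1) and 11 (EGF 18 h 2). The count of higher genes was 3 without EGFR water 2 or EGF 18 h 1.

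The 2 EGF times were then compared with each other, a contrast that holds both the length of EGF and the longer time in culture. F-box genes such as Fbxl20, Fbxo16 and Fbxo10 were higher at 18 h than at 3 h, and BTB genes such as Kbtbd8 and Klhl13 and the F-box gene Fbxo5 were lower. Of the 113 genes 20 were called higher and 23 lower, that is 38.1%, against 33.7% of all loci tested (17.7% higher and 16.0% lower), with a median of −0.011 against 0.0078 for all loci. The split turned to 14 higher and 11 lower under common-sum scaling (56.0% of calls higher, against 46.5% as deposited) and to 18 and 13 in a fit of 2 groups (58.1%), and it was 20 and 26 by median-ratio and 20 and 27 over protein-coding genes only. Counts without 1 library were 13 higher and 15 lower (EGF 3 h 1), 11 lower (EGF 3 h 2), 11 and 7 (EGF 18 h 1) and 11 and 8 (EGF 18 h 2). The median of the 113 genes was below 0 for EGF 18 h against EGF 3 h under each scaling tried. Against water it turned to 0.016 at 3 h under common-sum scaling and to 0.00082 at 18 h over protein-coding genes only.

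**Figure D2:**
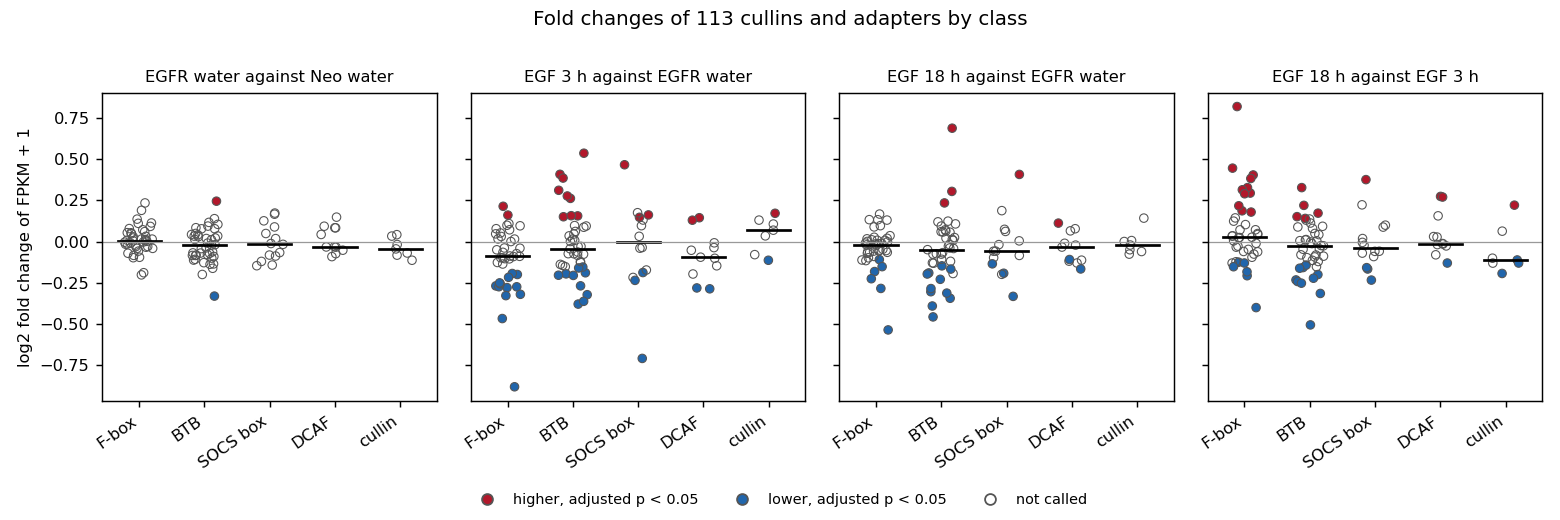
Log2 fold change of FPKM + 1 for each of the 113 genes (points) by class in the 4 comparisons, with the class median (line), red for genes called higher, blue for genes called lower and open for genes not called at adjusted p of 0.05. At 3 h of EGF the F-box class of 40 had 13 lower and 2 higher genes. In EGF 18 h against EGF 3 h it had 6 lower and 11 higher genes. Among all loci tested 19.7% were lower and 11.8% higher at 3 h of EGF. In EGF 18 h against EGF 3 h 16.0% of all loci were lower and 17.7% higher.

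BTB-domain proteins include the CUL3 adapters, and the BTB genes picked here by symbol moved in both directions. At 3 h of EGF 9 of 41 were called higher and 10 lower, at 18 h 3 were higher and 11 lower, and 5 were higher and 10 lower at 18 h than at 3 h. As a share, 21.95% were higher and 24.4% lower at 3 h, and 7.32% higher and 26.8% lower at 18 h. Of all loci tested 11.8% were higher and 19.7% lower at 3 h, and 13.2% higher and 18.7% lower at 18 h. At 18 h against 3 h 12.2% of the class were higher and 24.4% lower, against 17.7% and 16.0% of all loci tested. The split turned at 3 h to 9 higher and 6 lower under median-ratio scaling, 9 and 3 under common-sum scaling and 12 and 6 over protein-coding genes only. At 18 h it was 5 and 9, 3 and 6, and 8 and 9 in the same order. For EGF 18 h against EGF 3 h it was 1 and 6 under common-sum scaling. Class counts at 3 h were 5 higher and 4 lower without EGFR water 1, and 5 lower without EGFR water 2 or EGF 3 h 1. At 18 h lower genes numbered 5 without EGFR water 1 or EGF 18 h 1 and 6 without EGFR water 2 or EGF 18 h 2. For EGF 18 h against EGF 3 h they were 1 higher and 5 lower without either EGF 18 h library, 2 higher without EGF 3 h 1 and 5 lower without EGF 3 h 2.

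Btbd17 (ENSMUSG00000000202, chr11:114791217-114795945 on mm10, a BTB-domain gene of little known function) had the largest increase of all 113 genes at both times. Its promoter, printed above, holds none of the patterns searched. It stood at 59.1 and 60.8 FPKM in EGFR water libraries, 84.5 and 90.3 FPKM at 3 h of EGF, 96.5 and 97.9 FPKM at 18 h of EGF and 63.6 and 62.4 FPKM in Neo water libraries. All 4 EGF libraries lay above all 4 water libraries. The log2 fold change was 0.54 at 3 h (SE 0.039, adjusted p = 2.26e-04; 1.46-fold on the FPKM scale) and 0.69 at 18 h (adjusted p = 3.52e-05; 1.62-fold). The further difference between the times (0.15, SE 0.039, adjusted p = 0.0227) was less firm. It was lost under common-sum scaling, in a fit of those 2 groups only, and without EGF 3 h 1, EGF 18 h 1 or EGF 18 h 2 (adjusted p 0.0629 to 0.244). Klhl2, a kelch adapter that targets WNK kinases, had 32.7 and 31.6 FPKM at 3 h of EGF, against 24.7 and 24.1 FPKM in water (0.39, SE 0.034, adjusted p = 4.79e-04). At 18 h of EGF it had 30.8 and 29.9 FPKM (0.31, SE 0.034, adjusted p = 7.61e-04). Its libraries at each EGF time did not overlap those in water, which the rule for naming genes requires. The same holds, here and below, for each gene that the rule names, in the comparison it is named for. The times themselves did not pass the test for Klhl2 (−0.081, 95% interval −0.16 to −0.00026, adjusted p = 0.110).

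Several BTB genes were called higher at 3 h of EGF and had lower levels at 18 h than at 3 h. Kbtbd8, a CUL3 adapter needed for neural crest formation in human cells and Xenopus, had 12.9 and 12.3 FPKM at 3 h of EGF, against 9.62 and 10.3 FPKM in water (0.31, SE 0.065, adjusted p = 0.0122). At 18 h of EGF it had 8.61 and 8.57 FPKM, below both 3 h libraries (−0.50, SE 0.065, adjusted p = 0.00201) and below both water libraries, where the difference did not pass (−0.19, adjusted p = 0.0587). Its call at 3 h was lost without EGFR water 1 or EGF 3 h 1 (adjusted p 0.0724 to 0.0742). Btbd9, a gene linked in humans to restless legs syndrome, had 4.39 and 4.78 FPKM at 3 h of EGF, against 3.17 and 3.24 FPKM in water (0.41, SE 0.058, adjusted p = 0.00306). Its 18 h level of 3.49 and 3.48 FPKM was below that at 3 h (−0.31, SE 0.058, adjusted p = 0.00714) and did not pass against water (adjusted p = 0.252). Kctd10, an adapter that targets the GTPase RhoB, had 24.7 and 26.9 FPKM at 3 h of EGF, against 21.3 and 21.3 FPKM in water (0.26, SE 0.042, adjusted p = 0.00495). At 18 h it had 21.8 and 21.5 FPKM (−0.24 against 3 h, adjusted p = 0.00589), so only its 3 h libraries were high. Because 49.3% of its longest transcript is shared with Myo1h, its values are uncertain in source. Kctd3, which binds an HCN channel in mouse, rose by 0.28 at 3 h (adjusted p = 0.00480), with 33.2 and 35.2 FPKM at 3 h of EGF and 30.9 and 30.2 FPKM at 18 h, against 27.5 and 28.6 FPKM in water. Its 18 h libraries were still above both water libraries, where the difference did not pass (0.12, adjusted p = 0.0773), and below both 3 h libraries (−0.16, adjusted p = 0.0318). Btbd10 was called higher at 3 h and was −0.23 at 18 h against 3 h (adjusted p = 0.00469), with 17.5 and 18.2 FPKM at 18 h of EGF and 21.02 and 21.3 FPKM at 3 h.

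Other kelch and KCTD genes fell. Klhl41, a kelch protein of the skeletal muscle sarcomere, had 9.68 and 9.92 FPKM at 3 h of EGF, against 13.02 and 13.1 FPKM in water (−0.38, SE 0.042, adjusted p = 0.00116). At 18 h of EGF it had 10.05 and 9.39 FPKM (−0.39, SE 0.042, adjusted p = 5.98e-04). All 4 EGF libraries were below both EGFR water libraries, which the rule for naming genes requires. Klhl8 had 4.41 and 4.95 FPKM at 3 h of EGF and 4.90 and 4.84 FPKM at 18 h, against 6.45 and 6.13 FPKM in water. Its fold changes were −0.36 and −0.31 (adjusted p = 0.00539 and 0.00784), and without EGFR water 1 the 18 h call was lost (adjusted p = 0.0559). Btbd2, which binds topoisomerase I in human cells, fell by 0.32 at 3 h (adjusted p = 0.00614), with 10.4 and 11.4 FPKM at 3 h of EGF and 13.9 and 13.8 FPKM in water. Klhl13 fell further with time. It stood at 80.4 and 78.8 FPKM in EGFR water libraries, 68.0 and 69.9 FPKM at 3 h of EGF, 56.7 and 58.8 FPKM at 18 h of EGF and 80.9 and 76.9 FPKM in Neo water libraries. The 3 h libraries lay below all water libraries and the 18 h libraries below those at 3 h. Log2 fold changes were −0.20 at 3 h (adjusted p = 0.00778), −0.46 at 18 h (adjusted p = 1.87e-04) and −0.25 at 18 h against 3 h (adjusted p = 0.00333). The 3 h call was lost under common-sum scaling and without EGFR water 1 (adjusted p 0.0572 to 0.157).

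Btbd3, which orients dendrites toward active axons in mouse cortex, had 3.08 and 3.15 FPKM at 18 h of EGF, against 4.33 and 4.11 FPKM in water (−0.34, SE 0.058, adjusted p = 0.00456). Kctd15, an inhibitor of neural crest formation in zebrafish, had 7.42 and 7.27 FPKM at 18 h of EGF, against 8.58 and 10.1 FPKM in water (−0.30, SE 0.068, adjusted p = 0.0144). Kctd17, a CUL3 adapter that targets trichoplein and so promotes cilium formation in human cells, had 21.2 and 20.5 FPKM at 18 h of EGF, against 23.9 and 27.4 FPKM in water (−0.28, SE 0.060, adjusted p = 0.0111). All 3 genes had non-overlapping libraries in these comparisons, which the rule for naming genes requires, so it adds nothing to the calls. The call of Kctd15 was lost without EGFR water 2, EGF 18 h 1 or EGF 18 h 2 (adjusted p 0.0566 to 0.0664). That of Kctd17 was lost under common-sum scaling and without EGF 18 h 2 (adjusted p 0.0517 to 0.0597). Kctd17 was also lower at 18 h than at 3 h (−0.22, adjusted p = 0.0274), a call lost without any 1 of the 4 EGF libraries (adjusted p 0.0775 to 0.118). At 18 h against 3 h the higher BTB genes were Klhl26 (0.33, SE 0.062, adjusted p = 0.00761), Btbd17 as above and, named after their values were seen, Kctd2 (0.22), Kbtbd11 (0.17) and Klhl22 (0.14). Klhl26 lost its call without EGF 18 h 1 (adjusted p = 0.0518), and Kctd2 under common-sum scaling and without EGF 3 h 1 or EGF 18 h 2 (adjusted p 0.0596 to 0.0718). Kbtbd11 lost it under common-sum scaling and without any 1 of the 4 EGF libraries (adjusted p 0.0531 to 0.1496). Klhl22 lost it under common-sum scaling and without EGF 3 h 2, EGF 18 h 1 or EGF 18 h 2 (adjusted p 0.0590 to 0.206).

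**Figure D3:**
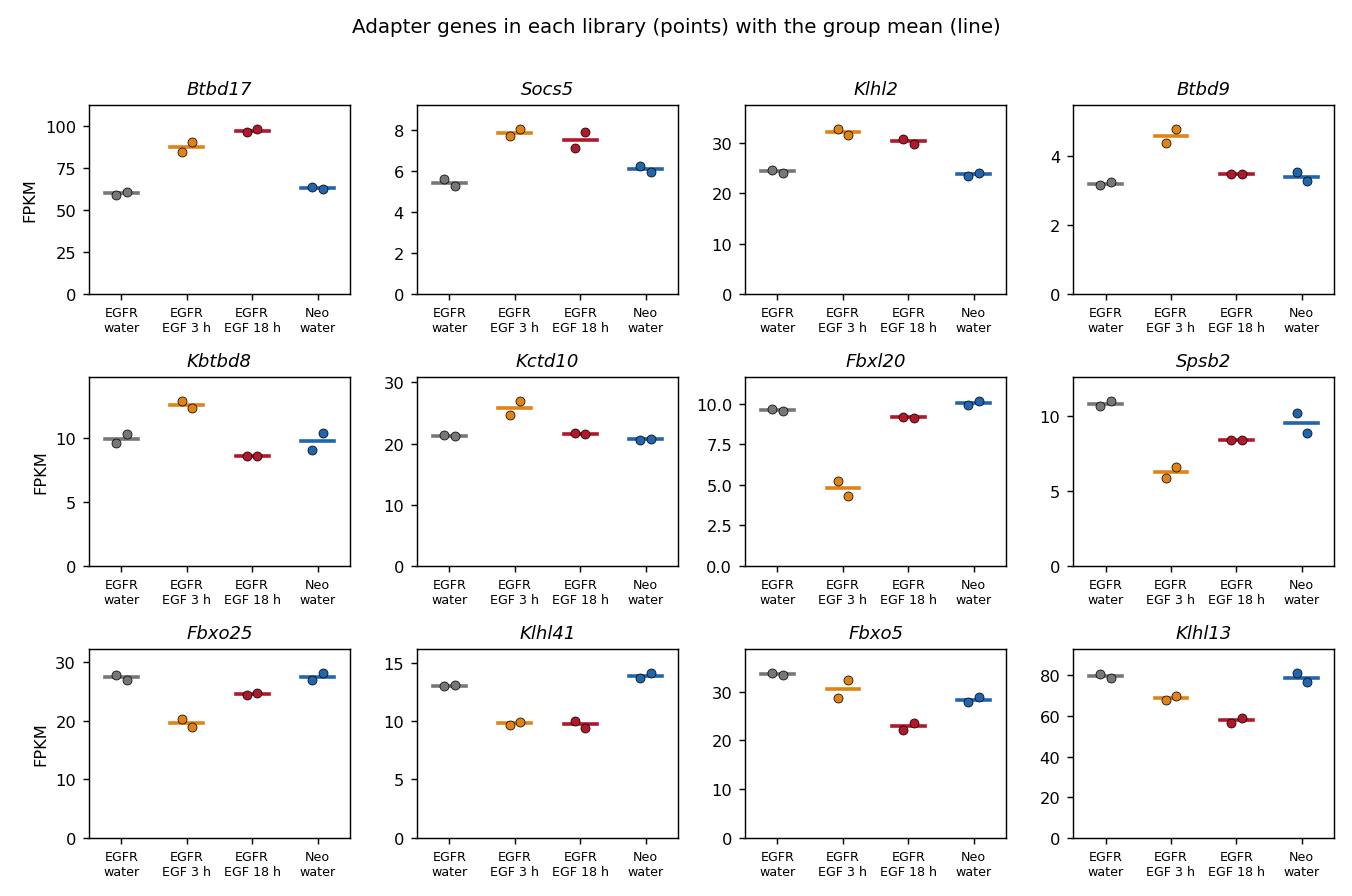
FPKM of 12 adapter genes in each library (points) with the group mean (line) for EGFR cells in water, EGF 3 h and EGF 18 h and for Neo cells in water, 2 libraries a group; every axis starts at 0. Btbd17 rose to 96.5 and 97.9 FPKM at 18 h, Fbxl20 stood at 5.22 and 4.32 FPKM at 3 h and 9.19 and 9.12 FPKM at 18 h, and Klhl13 was lower at 18 h than at 3 h.

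F-box proteins are the substrate receptors of CUL1 ligases, and at 3 h of EGF more of them were called lower than higher, which also held for all loci tested (11.8% higher and 19.7% lower). Of 40 genes 2 were called higher (5.0%) and 13 lower (32.5%) at 3 h. In the limma fit 0 were higher and 6 lower at 18 h. At an unadjusted p under 0.05 there were 2 higher and 7 lower, against 1900 and 2852 of all 10874 loci tested. At 18 h against 3 h 11 were higher and 6 lower. Among all loci tested 13.2% were higher and 18.7% lower at 18 h, and 17.7% and 16.0% at 18 h against 3 h. In both comparisons the class share called lower was below that of all loci. The class share called higher was below that of all loci at 18 h and above it at 18 h against 3 h. The lower genes were 4 of 11 Fbxl, 7 of 23 Fbxo and 2 of 6 Fbxw genes at 3 h. Lower calls outnumbered higher ones at 3 h under each scaling tried (4 higher and 13 lower by median-ratio, 1 and 5 by common-sum, 5 and 13 over protein-coding genes only). At 18 h the split was 2 and 4, 0 and 2, and turned to 5 and 4 in the same order. At 18 h against 3 h it was 9 and 2 under common-sum scaling. The summed FPKM of the class was 730.1 and 755 at 3 h of EGF and 748 and 757 at 18 h, against 796 and 781 in EGFR water libraries and 775 and 783 in Neo water libraries. The count of lower genes at 3 h was 5 without EGFR water 1, 5 without EGFR water 2 and 4 without EGF 3 h 1. Higher genes at 3 h numbered 1 without EGFR water 1, EGFR water 2, EGF 3 h 1, EGF 18 h 1 or EGF 18 h 2. At 18 h lower genes numbered 2 without EGFR water 1 and 3 without either EGF 18 h library. For EGF 18 h against EGF 3 h lower genes numbered 2 without either EGF 18 h library and 3 without EGF 3 h 2.

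Fbxl20 (ENSMUSG00000020883, chr11:98082556-98150403 on mm10), a synaptic F-box protein that targets the vesicle priming factor RIM1 in mouse brain, had the largest fall of all 113 genes. It had 5.22 and 4.32 FPKM at 3 h of EGF, against 9.66 and 9.52 FPKM in water (−0.88, SE 0.069, adjusted p = 3.10e-04; 0.497-fold on the FPKM scale). At 18 h of EGF it had 9.19 and 9.12 FPKM and in Neo water libraries 9.91 and 10.1 FPKM, so only the 3 h libraries were low among the 8. The difference of 18 h from 3 h was 0.82, SE 0.069, adjusted p = 4.58e-04, and 18 h against water was −0.060 (95% interval −0.22 to 0.10, adjusted p = 0.538). Of its longest transcript 7.21% is shared with Gm11632. Fbxo25, a relative of the muscle F-box protein atrogin-1, had 20.3 and 18.95 FPKM at 3 h of EGF and 24.5 and 24.8 FPKM at 18 h, against 27.9 and 27.04 FPKM in water. Its fold changes were −0.47, SE 0.042, adjusted p = 5.07e-04 at 3 h and 0.31 at 18 h against 3 h (adjusted p = 0.00228), and both EGF times lay below the water libraries. Fbxo33, which targets the RNA-binding protein YB-1 in human cells, had 25.04 and 26.2 FPKM at 3 h of EGF, against 32.3 and 32.4 FPKM in water (−0.33, SE 0.040, adjusted p = 0.00172).

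Fbxo16, Fbxo10 and Fbxw4 had the next largest rises of the class at 18 h against 3 h. Fbxo16 had 5.33 and 5.16 FPKM at 18 h of EGF, against 3.31 and 3.87 FPKM at 3 h (0.45, SE 0.072, adjusted p = 0.00427). Fbxo10, which targets BCL2 in human lymphoma cells, had 5.20 and 5.15 FPKM at 18 h, against 3.63 and 3.70 FPKM at 3 h (0.40, SE 0.055, adjusted p = 0.00233). Fbxw4, the gene at the dactylaplasia locus in mouse, had 6.63 and 7.54 FPKM at 18 h, against 4.98 and 5.40 FPKM at 3 h (0.38, SE 0.068, adjusted p = 0.00601), with 27.1% of its longest transcript shared with Gm17018. In EGFR water libraries these 3 genes stood at 4.71 and 4.41 FPKM, 4.53 and 4.75 FPKM and 6.35 and 6.37 FPKM, so the 3 h libraries were the lowest of the EGFR line for each gene. Fbxo5, also called Emi1, an inhibitor of the anaphase-promoting complex that accumulates in S phase, had 28.7 and 32.3 FPKM at 3 h of EGF and 22.2 and 23.5 FPKM at 18 h, against 33.7 and 33.4 FPKM in water. The 18 h libraries were below all others, with −0.54, SE 0.057, adjusted p = 5.64e-04 against water and −0.40, SE 0.057, adjusted p = 0.00278 against 3 h. Fbxl14, which targets the transcription factor SNAI1, was 1 of the 2 higher F-box genes at 3 h. It had 28.5 and 29.1 FPKM at 3 h of EGF, against 24.8 and 24.5 FPKM in water (0.21, SE 0.033, adjusted p = 0.00395). The other, Fbxo45, named after its values were seen, had 28.4 and 27.2 FPKM at 3 h of EGF, against 25.1 and 24.4 FPKM in water (0.16, adjusted p = 0.0330). Its call was lost under common-sum scaling, with a replicate block and without EGFR water 1, EGFR water 2, EGF 3 h 1, EGF 18 h 1 or EGF 18 h 2 (adjusted p 0.0531 to 0.153). Fbxw11 and Fbxw2, the 2 most abundant F-box genes, did not pass in any comparison (log2 fold changes from −0.098 to 0.072), with 95% intervals for Fbxw11 of −0.091 to 0.15 at 3 h and −0.086 to 0.16 at 18 h.

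SOCS-box proteins are the substrate receptors of CUL5 and CUL2 ligases. At 3 h of EGF 3 of 14 were called higher (Socs5, Socs7 and Asb1) and 3 lower (Spsb2, Spsb3 and Asb3). At 18 h 1 was higher (Socs5) and 3 were lower (Spsb2, Spsb3 and Asb3), and at 18 h against 3 h 1 was higher (Spsb2) and 3 lower (Socs4, Socs7 and Asb1). That is 42.9% called at 3 h, 28.6% at 18 h and 28.6% at 18 h against 3 h, where 31.5%, 31.9% and 33.7% of all loci were. Asb1 and Asb3 are named after their values were seen. The splits at 3 h were 4 higher and 2 lower by median-ratio, 3 and 1 by common-sum and 5 and 2 over protein-coding genes only. At 18 h they were 1 and 1, 1 and 1, and 1 and 2, and at 18 h against 3 h 1 and 1 by common-sum. At 3 h higher genes numbered 1 without EGFR water 2, and lower genes at 18 h numbered 0 without EGFR water 1 or EGF 18 h 1 and 1 without EGFR water 2 or EGF 18 h 2. At 18 h against 3 h lower genes numbered 0 without either EGF 18 h library.

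Socs5 (ENSMUSG00000037104, chr17:87107679-87137583 on mm10) encodes a SOCS protein that binds EGFR and promotes its degradation when overexpressed in human cells. It stood at 5.59 and 5.23 FPKM in EGFR water libraries, 7.71 and 8.01 FPKM at 3 h of EGF, 7.13 and 7.90 FPKM at 18 h of EGF and 6.23 and 5.95 FPKM in Neo water libraries. All 4 EGF libraries lay above all 4 water libraries, with 0.47, SE 0.059, adjusted p = 0.00188 at 3 h and 0.41, SE 0.059, adjusted p = 0.00221 at 18 h (1.45-fold and 1.39-fold on the FPKM scale). The 18 h level did not pass against 3 h (−0.059, 95% interval −0.20 to 0.079, adjusted p = 0.474). Socs7, which binds insulin receptor substrate proteins, had 44.4 and 45.4 FPKM at 3 h of EGF and 40.1 and 40.1 FPKM at 18 h, against 40.7 and 39.3 FPKM in water. Its fold change was 0.16 at 3 h (adjusted p = 0.00968; 0.0762 without EGFR water 2) and −0.16 at 18 h against 3 h (adjusted p = 0.00963; 0.0534 to 0.0554 without EGF 18 h 1 or EGF 18 h 2). Socs4, the closest relative of Socs5, had 6.53 and 5.61 FPKM at 3 h of EGF and 4.84 and 5.17 FPKM at 18 h, against 5.29 and 5.20 FPKM in water. It did not pass at 3 h (0.18, adjusted p = 0.0962), although both 3 h libraries were above both water libraries, and passed over protein-coding genes only and without EGF 3 h 2 (adjusted p = 0.0377 and 0.0280). Its level at 18 h was lower than at 3 h (−0.23, adjusted p = 0.0401). That call was lost with no filter, under common-sum scaling, in a fit of 2 groups, with a replicate block and without EGFR water 1 or 2, EGF 3 h 1 or EGF 18 h 1 or 2 (adjusted p 0.0552 to 0.178). Socs6, which binds the receptor KIT, had 11.7 and 12.2 FPKM at 3 h of EGF, 11.1 and 11.2 FPKM at 18 h and 13.2 and 10.3 FPKM in EGFR water, where its libraries stood furthest apart, and passed in no comparison. Without EGFR water 2 it passed against Neo water (0.33, adjusted p = 0.0467) and at 18 h against water (−0.22, adjusted p = 0.0339).

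Spsb2 (ENSMUSG00000038451, chr6:124808661-124810619 on mm10), which targets inducible nitric oxide synthase for degradation, had the largest fall of the SOCS-box class. It had 5.86 and 6.62 FPKM at 3 h of EGF, against 10.7 and 10.97 FPKM in water (−0.71, SE 0.073, adjusted p = 8.65e-04; 0.577-fold on the FPKM scale). At 18 h of EGF it had 8.39 and 8.38 FPKM, above 3 h (0.38, SE 0.073, adjusted p = 0.00842) and below EGFR water (−0.33, adjusted p = 0.0131). The call at 18 h against water was lost without EGFR water 1, EGFR water 2, EGF 18 h 1 or EGF 18 h 2 (adjusted p 0.0539 to 0.0695). Spsb3, a second SPRY-domain adapter, had 16.3 and 16.5 FPKM at 3 h of EGF and 17.2 and 18.2 FPKM at 18 h, against 19.2 and 19.8 FPKM in water. Its fold changes were −0.23 at 3 h and −0.13 at 18 h (adjusted p = 0.00526 and 0.0348). The 3 h call was lost under common-sum scaling (adjusted p = 0.131). The 18 h call was lost under all 3 other scalings, in a fit of 2 groups, and without EGFR water 1 or 2 or EGF 18 h 1 (adjusted p 0.0577 to 0.331). Of its exon bases 62.3% lie in Eme2, so its reads are uncertain in source. Asb1 was 0.15 at 3 h (adjusted p = 0.0400) and Asb3 −0.19 at 3 h and −0.19 at 18 h (adjusted p = 0.0458 and 0.0419). At 3 h the call of Asb1 was lost under 9 of 17 alternatives, among them without any 1 of the 6 EGFR libraries (adjusted p 0.0508 to 0.164). That of Asb3 was lost under 14 of 17, among them without any 1 library other than EGF 3 h 2 (adjusted p 0.0540 to 0.358). At 18 h the call of Asb3 was lost under 10 of 17, among them without any 1 of the water or EGF 18 h libraries (adjusted p 0.0505 to 0.193). At 18 h against 3 h that of Asb1 (−0.17) was lost under common-sum scaling and without EGF 3 h 2, EGF 18 h 1 or EGF 18 h 2 (adjusted p 0.0710 to 0.124).

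DCAF proteins are the substrate receptors of CUL4 ligases. At 3 h of EGF Dcaf5 and Dcaf10 were called higher and Dcaf8 and Dcaf11 lower of 11 genes. At 18 h Dcaf5 was higher and Dcaf13 and Dcaf7 lower, and at 18 h against 3 h Dcaf4 and Dcaf8 were higher and Dcaf13 lower. The shares called were 36.4%, 27.3% and 27.3%, against 31.5%, 31.9% and 33.7% of all loci in the same order. Dcaf4, Dcaf8, Dcaf10 and Dcaf11, and Dcaf5 at 3 h, are named after their values were seen. Dcaf8 had 36.97 and 37.9 FPKM at 3 h of EGF and 45.4 and 45.3 FPKM at 18 h, against 45.7 and 45.6 FPKM in water (−0.28, SE 0.030, adjusted p = 0.00106 at 3 h). Only its 3 h libraries were low, and 18 h stood above 3 h (0.27, SE 0.030, adjusted p = 0.00121). Dcaf11 had 16.98 and 18.7 FPKM at 3 h of EGF, against 22.1 and 21.8 FPKM in water (−0.29, adjusted p = 0.0176). Its call was lost under common-sum scaling and without EGFR water 1, EGFR water 2 or EGF 3 h 1 (adjusted p 0.0722 to 0.133). Dcaf13 had 75.6 and 77.7 FPKM at 3 h of EGF and 69.1 and 70.8 FPKM at 18 h, against 80.3 and 76.9 FPKM in water (−0.17, SE 0.034, adjusted p = 0.0103 at 18 h). Its 18 h call was lost under common-sum scaling and without EGFR water 1 or EGF 18 h 1 (adjusted p 0.0730 to 0.190). The call at 18 h against 3 h (−0.13) was lost under common-sum scaling, in a fit of 2 groups and without EGF 3 h 2, EGF 18 h 1 or EGF 18 h 2 (adjusted p 0.0591 to 0.137). Dcaf7, which binds the kinase DYRK1A, was −0.11 at 18 h (adjusted p = 0.0472), lost under 14 of 17 alternatives, all 8 left-out libraries among them (adjusted p 0.0511 to 0.407).

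Dcaf5 had 12.98 and 13.3 FPKM at 3 h of EGF and 12.9 and 13.1 FPKM at 18 h, against 11.8 and 12.03 FPKM in water. The fold changes were 0.13 and 0.11 (adjusted p = 0.0254 and 0.0401), with EGF libraries above both EGFR water libraries. Its 3 h call was lost in a fit of 2 groups and without EGFR water 1 or 2 or EGF 3 h 1 or 2 (adjusted p 0.0581 to 0.129). Its 18 h call was lost under common-sum scaling, in a fit of 2 groups, with a replicate block and without any 1 of the 4 water libraries or EGF 18 h 1 or 2 (adjusted p 0.0521 to 0.182). Dcaf10 was 0.15 at 3 h (adjusted p = 0.0445), with 13.8 and 13.8 FPKM at 3 h of EGF and 11.95 and 12.8 FPKM in water. This call was lost with no filter, in a fit of 2 groups, with a replicate block and without any 1 of the 8 libraries (adjusted p 0.0537 to 0.228). Dcaf4 was 0.27 at 18 h against 3 h (adjusted p = 0.0228), with 5.51 and 5.49 FPKM at 18 h of EGF and 4.22 and 4.53 FPKM at 3 h. That difference was lost without EGF 3 h 1, EGF 18 h 1 or EGF 18 h 2 (adjusted p 0.0839 to 0.110). The class split was 2 higher and 1 lower at 3 h by common-sum. At 18 h it was 1 and 1, 0 and 0, and 1 and 1 by median-ratio, by common-sum and over protein-coding genes only, and it was 2 and 0 at 18 h against 3 h by common-sum.

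Of the 7 cullins 28.6% were called at 3 h of EGF, 0 at 18 h and 57.1% at 18 h against 3 h, where 31.5%, 31.9% and 33.7% of all loci were. At 3 h of EGF 1 was higher (Cul5) and 1 lower (Cul4a). At 18 h 0 were called either way by limma. At an unadjusted p under 0.05 there were 1 higher and 1 lower, against 1900 and 2852 of all 10874 loci tested. At 18 h against 3 h 1 was higher (Cul7) and 3 lower (Cul1, Cul2 and Cul5). Over protein-coding genes only 5 were higher and 0 lower at 3 h, and by median-ratio and by common-sum 2 and 0. At 18 h 1 was higher (Cul7) by median-ratio and over protein-coding genes only. Cul5, the scaffold of most SOCS-box ligases, had 30.3 and 29.0 FPKM at 3 h of EGF and 25.5 and 26.1 FPKM at 18 h, against 26.6 and 25.8 FPKM in water. Both 3 h libraries were above the other 6, with 0.17, SE 0.040, adjusted p = 0.0173 at 3 h and −0.19, SE 0.040, adjusted p = 0.0105 at 18 h against 3 h. Without EGFR water 1, EGFR water 2 or EGF 3 h 1 the 3 h call was lost (adjusted p 0.0575 to 0.103), and without EGF 3 h 1 or EGF 18 h 1 that between the times (adjusted p 0.0531 to 0.0655). Cul7, an atypical cullin that pairs with Fbxw8, had 6.45 and 6.42 FPKM at 18 h of EGF, against 5.33 and 5.42 FPKM at 3 h (0.22, SE 0.052, adjusted p = 0.0173). Its call was lost without EGF 3 h 1, EGF 18 h 1 or EGF 18 h 2 (adjusted p 0.0713 to 0.0793). At 18 h against water Cul7 did not pass (0.14, adjusted p = 0.0758) but passed without Neo water 1 or 2 (adjusted p = 0.0430 and 0.0424) and in a fit of 2 groups (0.0476).

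Cul1, the scaffold of F-box ligases, had 63.4 and 65.3 FPKM at 18 h of EGF, against 69.1 and 70.1 FPKM at 3 h (−0.11, SE 0.030, adjusted p = 0.0285). Cul2, which pairs with VHL-box proteins, had 30.6 and 29.9 FPKM at 18 h, against 33.4 and 32.96 FPKM at 3 h (−0.13, SE 0.035, adjusted p = 0.0273). Both calls were lost under common-sum scaling, in a fit of 2 groups and without any 1 of the 6 EGFR libraries (adjusted p 0.0565 to 0.166 for Cul1 and 0.0532 to 0.134 for Cul2). Cul4a had 57.1 and 58.1 FPKM at 3 h of EGF, against 62.2 and 62.5 FPKM in water (−0.11, SE 0.029, adjusted p = 0.0240). This call was lost under the 3 other scalings, in a fit of 2 groups and without EGFR water 1 or 2 or EGF 3 h 1 (adjusted p 0.0620 to 0.763). Cul3, the scaffold of BTB ligases, had 79.5 and 79.3 FPKM at 3 h of EGF and 74.5 and 70.5 FPKM at 18 h, against 73.6 and 71.3 FPKM in water. It did not pass at 3 h (0.13, adjusted p = 0.0641) or at 18 h against 3 h (−0.13, adjusted p = 0.0637). It passed at 3 h and at 18 h against 3 h under the 3 other scalings, with a replicate block and without Neo water 1 or 2 (at 3 h, adjusted p = 0.0448 for each). Cul4b had 18.8 and 18.1 FPKM at 3 h of EGF and 16.95 and 17.3 FPKM at 18 h, against 17.6 and 16.5 FPKM in water, with a 95% interval of 0.0056 to 0.21 at 3 h (adjusted p = 0.0975).

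**Figure D4:**
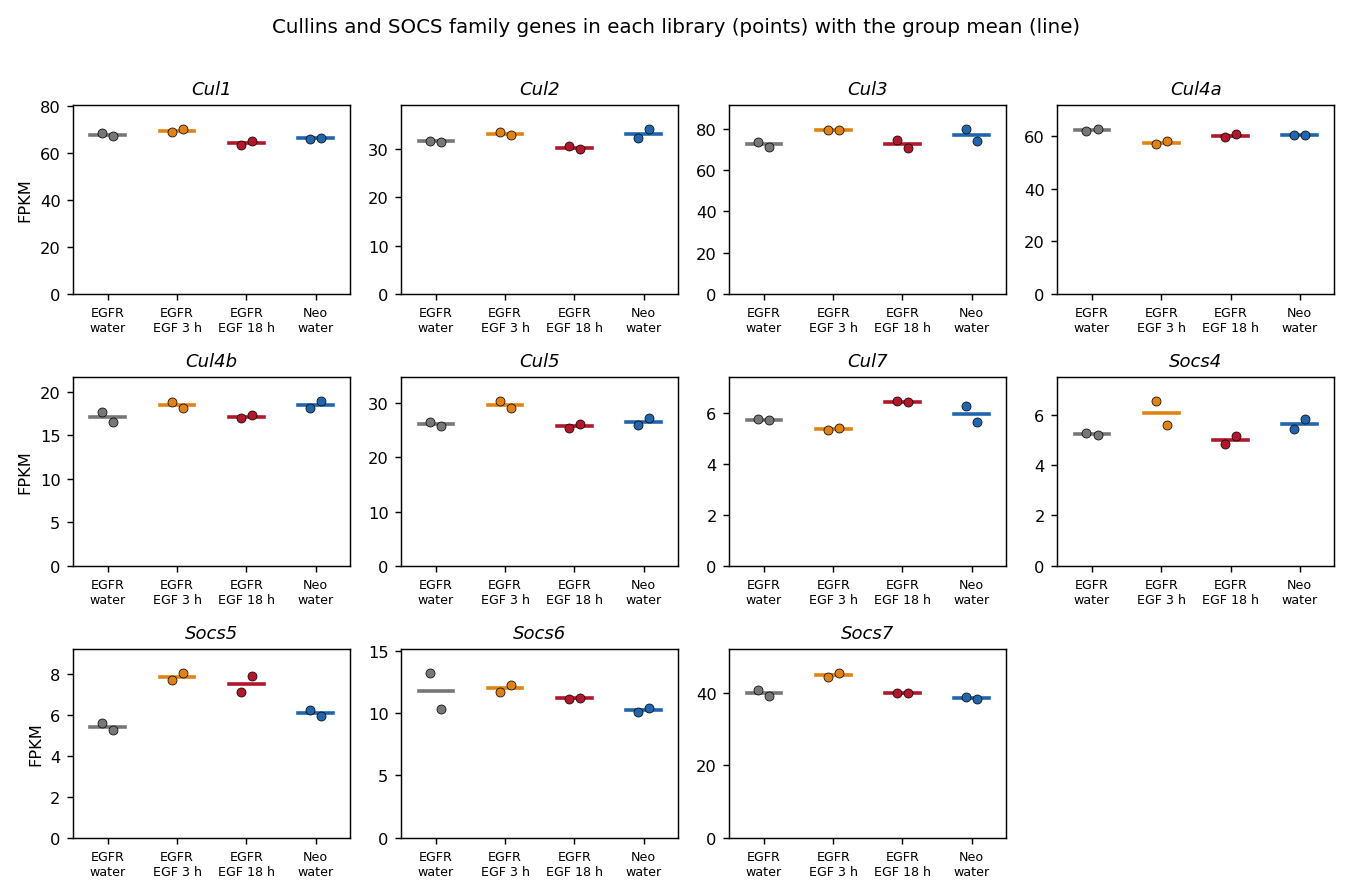
FPKM of the 7 cullins and of Socs4, Socs5, Socs6 and Socs7 in each library (points) with the group mean (line) for EGFR cells in water, EGF 3 h and EGF 18 h and for Neo cells in water, 2 libraries a group; every axis starts at 0. Between its highest and lowest library a cullin differed by a median factor of 1.14, while Socs5 stands at 7.71 and 8.01 FPKM at 3 h and 7.13 and 7.90 FPKM at 18 h, above 5.59 and 5.23 FPKM in EGFR water.

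The EGFR and Neo lines, both in water, were set side by side to ask what differs between them without added EGF. Of the 113 genes 1 was called higher (Kctd7) and 1 lower (Kbtbd11), against 6.01% of all loci tested (3.11% higher and 2.9% lower). At an unadjusted p under 0.05 in the limma fit 13 were higher and 10 lower, against 1619 and 1185 of all 10874 loci tested. The median log2 fold change, EGFR minus Neo, was −0.0086 (0.067 under common-sum scaling), against 0.013 for all loci tested. The counts were 2 higher and 1 lower under median-ratio scaling and 2 and 3 over protein-coding genes only. F-box, SOCS-box, DCAF and cullin genes had 0 calls in this limma fit. At an unadjusted p under 0.05 there were 5 higher and 2 lower F-box genes, 1 and 1 SOCS-box genes, 1 and 1 DCAF genes and 0 and 1 cullins. Of the F-box genes 1 was called higher under median-ratio scaling, and 1 higher and 1 lower over protein-coding genes only. Kbtbd11, a kelch and BTB-domain gene, had 10.98 and 10.8 FPKM in EGFR water libraries, against 14.5 and 13.4 FPKM in Neo water libraries (−0.33, SE 0.047, adjusted p = 0.0126). It was higher again at 18 h of EGF, with 13.3 and 12.6 FPKM (0.24, SE 0.047, adjusted p = 0.00908 against EGFR water). The first call was lost in a fit of 2 groups and without Neo water 1, EGFR water 1 or EGFR water 2 (adjusted p 0.0564 to 0.0912), and the second without EGFR water 2 or EGF 18 h 1 (adjusted p 0.0557 to 0.0637). In Kbtbd11 25.5% of the longest transcript is shared with Gm37844. Kctd7, a gene of progressive myoclonic epilepsy in humans, had 8.35 and 8.70 FPKM in EGFR water libraries, against 7.26 and 6.80 FPKM in Neo water libraries (0.25, SE 0.050, adjusted p = 0.0372). Its call was lost with no filter, in a fit of 2 groups, with a replicate block and without any 1 of the 8 libraries (adjusted p 0.0512 to 0.188).

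Other parts of the ligase machinery were read from 3 lists of genes. Of 37 tested adapters whose symbols lie outside the families above (48 listed), 8 were called higher and 9 lower at 3 h of EGF, 5 and 5 at 18 h, 9 and 13 at 18 h against 3 h, and 1 (Phip) and 0 in EGFR against Neo. Of all loci 11.8% were higher and 19.7% lower at 3 h, 13.2% and 18.7% at 18 h, 17.7% and 16.0% at 18 h against 3 h, and 3.11% and 2.9% in EGFR against Neo, which also applies to the lists below. In EGFR against Neo the calls named from the 3 lists were lost without any 1 water library. Enc1, a kelch adapter of CUL3 first known from neurons, had 57.5 and 58.4 FPKM at 3 h of EGF and 51.4 and 52.9 FPKM at 18 h, against 15.2 and 14.7 FPKM in water. Its fold changes, 1.89, SE 0.034, adjusted p = 2.67e-07 at 3 h and 1.73, SE 0.034, adjusted p = 2.30e-07 at 18 h, were larger than that of any of the 113 genes. Abtb2, an ankyrin and BTB-domain gene, had 9.22 and 9.31 FPKM at 3 h of EGF, against 6.09 and 5.85 FPKM in water (0.56, SE 0.043, adjusted p = 3.10e-04). Rhobtb3, a protein with BTB domains, had 12.6 and 12.8 FPKM at 18 h of EGF, against 7.97 and 8.34 FPKM in water (0.58, SE 0.046, adjusted p = 1.65e-04). Rab40c, a SOCS-box GTPase, was lower at 3 h (−0.41, SE 0.057, adjusted p = 0.00278). Dtl, the CUL4 receptor of CDT1 in S phase, was lower at 18 h, with 18.3 and 18.3 FPKM at 18 h of EGF and 24.4 and 23.1 FPKM in water (−0.36, SE 0.037, adjusted p = 4.68e-04). Of 15 tested core subunits, linkers and conjugating enzymes (18 listed), 4 were higher and 3 lower at 3 h, 2 and 3 at 18 h, 2 and 3 at 18 h against 3 h and 0 and 1 in EGFR against Neo (Ube2d2a). Ube2d2a, a ubiquitin-conjugating enzyme, and Arih1, a ligase that works with neddylated cullins, rose at 3 h (0.25, SE 0.034, adjusted p = 0.00255 and 0.24, SE 0.035, adjusted p = 0.00348). Ube2d2a was lower in EGFR water than in Neo water (−0.17), a call also lost under common-sum scaling and in a fit of 2 groups. Whether its rise at 3 h is linked to that difference was not tested. Of 22 neddylation and COP9 signalosome genes, 2 were higher and 1 lower at 3 h, 3 and 3 at 18 h, 3 and 3 at 18 h against 3 h and 0 and 1 in EGFR against Neo (Cand2). Ube2f, the NEDD8-conjugating enzyme for CUL5, rose at 3 h (0.29, SE 0.035, adjusted p = 0.00180), and Cand2, which binds cullins that lack NEDD8, rose at 18 h (0.33, SE 0.051, adjusted p = 0.00319). Cand2 too was lower in EGFR water than in Neo water (−0.25).

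Transcript length is a feature the symbols did not use, and it is given here as a description only. The longest GENCODE M21 transcript had a median of 4648 bases in the 17 genes called higher at 3 h of EGF, 3193 bases in the 29 called lower and 4147 bases in the 67 not called. At 18 h of EGF it was 5126 bases in the 5 higher genes, 3339.5 bases in the 22 lower genes and 3972.5 bases in the other 86. Of the 113 genes 10 share at least 20% of their longest transcript with another gene (at least 200 bases at 95% identity), Kctd10, Fbxw4 and Kbtbd11 among those named, and 8 have at least 20% of exon bases in another gene, Spsb3 among them. The sources used here do not give strandedness, so reads of such genes and of their overlapping partners cannot be told apart.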

How the data were processed

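RNA was purified on RNeasy columns and made into RNA-seq libraries, per the labels' protocols, from 8 samples in 4 groups of 2. The authors deposited FPKM values for 12193 loci per sample. Per the submitters' processing notes, the tools were TopHat2 2.0.8, Trimmomatic 0.22, DESeq and HTSeq 0.5.4, and the build was mm10. The sources used here give neither the program behind the FPKM values nor strandedness nor read depth. Low FPKM values were checked for whole multiples of 1 read over a range of depths. At any 1 depth 20% lie within 0.1 reads of a whole number by chance. The mean over the depths tried was 19.5 to 20.1%. At the best depth, picked as the highest, it was 31.8 to 35.2%, which cannot be set against the 20%. So no reads were recovered and no counting interval can be given. Deposited values summed to 683834 to 808072 FPKM per library.

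Values were taken as log2(FPKM + 1), loci that reached 1 FPKM in 2 or more libraries were kept (10874), and limma 3.58.1 with a variance trend (R 4.3.3) fitted all 4 groups together. P-values were adjusted by Benjamini-Hochberg over all loci and called below 0.05. The members and lists were chosen with earlier results of these data known. Named genes were, per comparison, up to 8 increases and 8 decreases by fold change among called members with non-overlapping libraries and a mean of at least 2 FPKM, every cullin, Socs4 to Socs7 and the 2 most abundant genes of each class; from the other lists, up to 4 called genes. Genes in counts of 5 or fewer outside that rule are named as chosen after their values were seen, and 1 gene that the rule names is not reported here. Shared sequence was found with minimap2 2.31-r1302 between GENCODE M21 transcripts (95 of 113 genes matched M21 coordinates), tables were made with Python 3.11.15, pandas 2.3.3 and NumPy 2.4.6, and figures with matplotlib 3.10.9. Alternatives were a pseudocount of 0.1, no filter, a filter at 5 FPKM, median-ratio, common-sum and protein-coding scaling, the 2 compared groups only, no variance trend, a replicate block, and each library left out, where the lone sample is assumed to vary like the other groups.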

Additional observations from a re-analysis of the deposited data

Results flagged for a closer look

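For 29 of the genes named for EGF 18 h against EGF 3 h, or named in all comparisons, the 2 levels differed (limma, Benjamini-Hochberg adjusted p below 0.05 over all loci, 2 libraries a group). No water library is labelled 18 h, so the length of EGF and time in culture cannot be told apart. Differences below are log2 of FPKM + 1, 18 h minus 3 h; 1 of these genes is not listed. Among F-box genes, Fbxl20 (0.82), Fbxo16 (0.45), Fbxo10 (0.40), Fbxw4 (0.38) and Fbxo25 (0.31) stood higher at 18 h, and Fbxo5 (−0.40) lower at 18 h. Among BTB genes, Klhl26 (0.33), Kctd2 (0.22), Kbtbd11 (0.17), Btbd17 (0.15) and Klhl22 (0.14) stood higher at 18 h, and Kbtbd8 (−0.50), Btbd9 (−0.31), Klhl13 (−0.25), Kctd10 (−0.24), Btbd10 (−0.23) and Kctd17 (−0.22) lower at 18 h. Among SOCS-box genes, Spsb2 (0.38) stood higher at 18 h, and Socs4 (−0.23), Asb1 (−0.17) and Socs7 (−0.16) lower at 18 h. Among DCAF genes, Dcaf4 (0.27) and Dcaf8 (0.27) stood higher at 18 h, and Dcaf13 (−0.13) lower at 18 h. Among cullins, Cul7 (0.22) stood higher at 18 h, and Cul5 (−0.19), Cul2 (−0.13) and Cul1 (−0.11) lower at 18 h. Among the 29, calls of this difference that were lost when a setting or a library was changed are named with their values in the account of each class. Genes named only for other comparisons, such as Kctd3, are not among the 29, and their calls of this difference were not followed through the alternatives. With 2 libraries a group, no library could be tested for standing apart from its group.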

How the results depend on the processing

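Over all named values and alternatives 1911 kept their side of the threshold, 203 fell out of the call and 24 came into it. No called value turned round, and none came into the call in the other direction. Where a value stayed outside the call, its direction was not compared. Of the named calls, 15 of 28 at 3 h, 7 of 17 at 18 h, 14 of 29 at 18 h against 3 h and 0 of 2 in EGFR against Neo held under all alternatives in which the gene was tested. In EGFR against Neo, higher genes (1) numbered 0 with no filter and with the replicate block, 2 under median-ratio scaling and over protein-coding genes only, and 0 to 1 without 1 library, and lower genes (1) numbered 3 over protein-coding genes only, 0 in a fit of 2 groups and 0 to 1 without 1 library. At 3 h, higher genes (17) numbered 29 over protein-coding genes only and 8 to 18 without 1 library, and lower genes (29) numbered 10 under common-sum scaling and 12 to 29 without 1 library. At 18 h, higher genes (5) numbered 10 under median-ratio scaling, 16 over protein-coding genes only and 3 to 5 without 1 library, and lower genes (22) numbered 9 under common-sum scaling and 7 to 20 without 1 library. At 18 h against 3 h, higher genes (20) numbered 11 to 22 without 1 library, and lower genes (23) numbered 11 under common-sum scaling, 13 in a fit of 2 groups and 7 to 25 without 1 library. Why the scalings differ was not tested. Labels share replicate numbers between groups, but deviations of same-numbered libraries correlated at −0.17 to 0.31 over 6 pairs of groups, so the numbers were not read as pairs; with a replicate block the counts of higher and lower genes were 0 and 1 in EGFR against Neo, 16 and 26 at 3 h, 4 and 17 at 18 h and 19 and 21 at 18 h against 3 h. Depth is unknown, so how far it limits low genes could not be given; 11 of the 113 genes had a mean under 5 FPKM.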
